A study of Arabidopsis thaliana with 6 samples.

Results

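The genes described here are 9 dehydration and LEA-type genes of Arabidopsis thaliana, read by 9 of the 22746 probe sets tested, and their levels are given in vegetative shoot apices of plants with an excess of either of a pair of microRNAs. LEA is short for late embryogenesis abundant. The members are LEA4-5, AT3G02480, AT3G17520, AT2G21820, LTI30, COR47, HIS1-3, XERICO and SAG29. Each is the single gene that the array annotation pairs with its probe set, and all 9 listed genes were found, out of 13356 genes with such a probe set. The members were selected on measured values: they were chosen by the changes of either line against vector, known from earlier results of these arrays, together with gene function. Their values in all comparisons are therefore a description, and no p is attached to them.

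The arrays fall into 3 groups of 2. The first group overexpresses miR164b in the Col-0 background, the second overexpresses miR172a in the same background, and the third is Columbia transformed with the empty plasmid pML_Bart, called vector below. All plants had grown for 7 days in short days, and total RNA came from the vegetative apex. The labels do not say which promoter drives a microRNA, how many transgenic lines stand behind a group or whether the arrays within a group hold RNA of independent plants, so every p measures the spread between these arrays, which may be technical. The microRNAs themselves were not measured.

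When plant tissue dries, cools or matures into seed, the hormone abscisic acid (ABA) accumulates. ABA binds soluble receptors that block a class of phosphatases, which frees protein kinases to activate transcription factors, and these switch on protective genes. LEA proteins and dehydrins, a LEA family with repeated lysine-rich segments, are small and very hydrophilic, stay largely unstructured in solution and protect enzymes and membranes when water is lost. In growing vegetative tissue with enough water many of them are kept low and are induced by drought, salt, cold or added ABA.

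Values below are scaled intensities as deposited, given for array 1 and then array 2 of a group. Each change is a difference of mean log2(intensity + 16), printed with a standard error, from 1 limma fit to all 6 arrays and all 22746 probe sets. A probe set is called when its Benjamini-Hochberg adjusted p over all of them is under 0.05. The offset of 16 shrinks the changes of dim probe sets. In bulk apices, fewer cells that express a gene and less RNA per cell cannot be told apart.

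Several controls differed between arrays. The 25S rRNA control probe set read 443.2 and 528.5 on the miR164b arrays, 355.4 and 3462.2 on the miR172a arrays, and 4069.7 and 4093.3 on the vector arrays. There are 2 pairs of actin controls. The 3′ reading divided by the 5′ one gave 1.96 and 2.11 in miR164b, 2.25 and 3.05 in miR172a, and 3 and 2.94 in vector for the first pair. The second pair gave 11.9 and 9.2 in miR164b, 12 and 12.5 in miR172a, and 13.4 and 14.3 in vector. Of 32 vegetative apex markers 6 were measured (CLV3, UFO, LAS, YAB3, PHV and ARR15). STM and WUS were not among the 6. Detection calls were not used, and UFO read 12.5 on miR172a array 2, so the values do not show that every marker was expressed. The summed intensity of the 6 markers spanned 1240.3 to 1296.4 in miR164b, 1196.6 to 1253.3 in miR172a and 1288.3 to 1290.3 in vector. PHV and YAB3 make up most of that sum, and single markers moved within it. ARR15 read 205.8 and 200.1 in miR164b, 83.8 and 65.4 in miR172a, and 96.6 and 102.8 in vector, and was higher in miR164b than in vector (limma adjusted p = 0.031, up to 0.22 over the alternatives) and than in miR172a (adjusted p = 0.0058, up to 0.072). Both ARR15 calls were lost without either miR164b array, and the first also without either vector array. LAS was lower in miR164b, at 37.6 and 44.3, than in miR172a, at 63.9 and 65.8 (limma adjusted p = 0.034), a call lost in 12 of 14 settings including every left-out array (adjusted p up to 0.17). The 2 measured flower markers, AGL24 and AGL42, summed to 46.8 to 67.4 in miR164b, 92.5 to 95.9 in miR172a and 34.6 to 34.9 in vector. Both were higher in miR172a than in vector (limma adjusted p = 0.039 and 0.0087), calls lost with an offset of 1. The AGL24 call was lost in 8 of 13 settings and the AGL42 call in 5 of 13. AGL24 read 60.3 and 43.8 in miR164b, 62.3 and 55.5 in miR172a, and 28.7 and 28.8 in vector. Its change against vector was 0.59 in miR164b, not called, and 0.74 in miR172a, and the lines overlapped. AGL42 read 7.1 and 3 in miR164b, 33.6 and 37 in miR172a, and 5.9 and 6.1 in vector. It was also higher in miR172a than in miR164b (limma adjusted p = 0.0056). Each of these calls was lost without either miR172a array. For 3 guard cell markers the sums were 213.2 to 218.4, 167.7 to 191.8 and 173.4 to 180.6 in the same order of groups, and for 3 root markers 835.9 to 841, 768.8 to 808.2 and 869.7 to 885.8. For 2 trichome markers they were 236.1 to 245.5, 214.1 to 226.7 and 245.3 to 252.1, and for 2 leaf photosynthesis markers 8094.5 to 9287.2, 8916.7 to 9472.6 and 8837.4 to 9402.6. Of 28 seed and embryo markers 0 were measured, so RNA of seed origin was not checked here. The part of the control and marker differences in the results below was not tested.

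**Figure D1:**
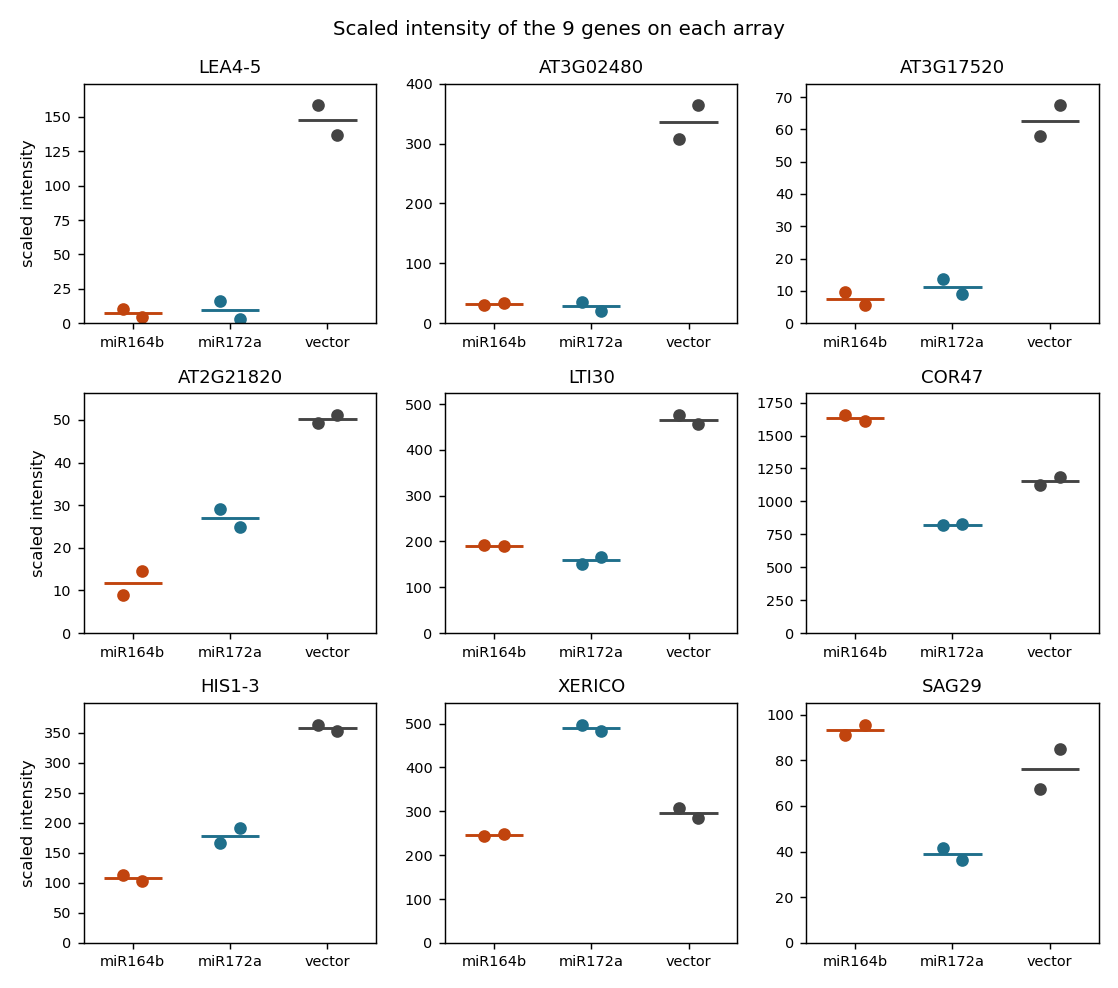
Scaled intensity (linear axes from 0) of each of the 9 genes on every array, with miR164b, miR172a and vector from left to right; points are arrays and bars are means of 2 arrays. In the panels of LEA4-5, AT3G02480, AT3G17520, AT2G21820, LTI30 and HIS1-3 both lines lie under vector, while for COR47, XERICO and SAG29 vector lies between the lines. Arrays of the lines also stand apart from each other for AT2G21820, LTI30 and HIS1-3.

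Among the LEA and dehydrin genes, LEA4-5 (AT5G06760), whose product protects enzymes from drying and freezing in the test tube, read low in both lines and clearly in vector. It stood at 10.5 and 4.3 in miR164b, 16.3 and 3.3 in miR172a, and 158.4 and 136.6 in vector. All 4 line arrays lay far below both vector arrays, and the lines overlapped each other. The change was -2.81 ± 0.27 in miR164b and -2.71 ± 0.27 in miR172a. Since both line means are under 16, the size depends on the offset: with an offset of 1 the changes were -4.25 and -4.10, and with 64 they were -1.57 and -1.52.

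AT3G02480, known in the annotation by its locus alone, read clearly in vector and low in both lines. It read 30.8 and 33.0 in miR164b, 36.1 and 21.1 in miR172a, and 306.9 and 363.8 in vector. The gap between the lowest vector array and the highest line array was 273.9 for miR164b and 270.8 for miR172a. The change was -2.87 ± 0.18 in miR164b and -2.99 ± 0.18 in miR172a. An offset of 1 gave -3.35 and -3.55, which are nearer 0 than those of LEA4-5, and 64 gave -2.05 and -2.11, which are further from 0.

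AT3G17520, also named by locus only, was a dimmer member of the same pattern. Its readings were 9.5 and 5.7 in miR164b, 13.7 and 9.0 in miR172a, and 57.9 and 67.4 in vector. The lines overlapped and vector stood apart, with changes of -1.74 ± 0.14 in miR164b and -1.53 ± 0.14 in miR172a. These too depend on the offset, at -2.92 and -2.39 with an offset of 1 and -0.82 and -0.75 with 64.

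AT2G21820, the last of the genes named by locus only, had 3 separate levels. It read 9.0 and 14.5 in miR164b, 29.0 and 24.8 in miR172a, and 49.2 and 51.1 in vector. No array of one group reached into another. The changes were -1.26 ± 0.12 in miR164b and -0.63 ± 0.12 in miR172a. With an offset of 1 they were -2.04 and -0.88, and with 64 -0.59 and -0.33. The miR172a change missed the threshold with an offset of 1, a trend in eBayes, only miR172a and vector fitted, or the replicate letter as a block. It also missed it with each array left out in turn, which makes 10 of 13 settings. The miR164b change missed it in 5 of 13.

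LTI30 (AT3G50970, also called XERO2) encodes a basic, cold- and ABA-induced dehydrin that binds membranes through its lysine-rich segments. It read 191.8 and 189.2 in miR164b, 150.7 and 167.1 in miR172a, and 475.8 and 456.7 in vector. Both lines kept clear intensity, unlike LEA4-5, and lay well under vector. The change was -1.22 ± 0.09 in miR164b and -1.46 ± 0.09 in miR172a.

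COR47 (AT1G20440, also called RD17), an acidic dehydrin of the cold response, did not follow LTI30. It read 1654.5 and 1607.0 in miR164b, 817.7 and 825.4 in miR172a, and 1123.2 and 1188.5 in vector. Vector lay between the lines, with no overlap of any pair of groups. The change was 0.49 ± 0.08 in miR164b and -0.48 ± 0.08 in miR172a. In miR164b it was not called, but it passed the threshold in 4 of 14 alternatives, namely an offset of 64, median centring, leaving out the dimmest 40% of probe sets and a trend.

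On the chromosome LTI30 is followed by the dehydrin gene XERO1, and COR47 by the dehydrin gene ERD10, in the order of protein-coding genes of the TAIR10.1 gene table. Neither neighbour has a one-gene probe set here. The probe sequences were not used here, so the part of cross-hybridisation between related dehydrins was not tested.

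HIS1-3 (AT2G18050) encodes the linker histone variant that drought and ABA induce; linker histones bind DNA between nucleosomes. It read 113.1 and 103.3 in miR164b, 166.8 and 191.1 in miR172a, and 363.2 and 353.9 in vector. The groups did not overlap, and miR164b was lowest. The change was -1.59 ± 0.10 in miR164b and -0.94 ± 0.10 in miR172a. The measured relative HON4, a linker histone-like gene of the list, read 589.9 and 602.8 in miR164b, 561.5 and 617.1 in miR172a, and 686.9 and 760.3 in vector, and was not called in either line (adjusted p = 0.23 and 0.16 by limma).

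XERICO (AT2G04240) encodes a small RING-H2 zinc finger protein whose overproduction raises ABA in Arabidopsis. It read 242.7 and 248.3 in miR164b, 496.7 and 482.2 in miR172a, and 308.5 and 285.6 in vector. It was the 1 member higher in miR172a than in vector, by 0.69 ± 0.08, whereas its change in miR164b was -0.26 ± 0.08 and not called.

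SAG29 (AT5G13170, also called SWEET15) encodes a sugar transporter of the plasma membrane that rises in ageing leaves and under osmotic stress. It read 90.9 and 95.4 in miR164b, 41.6 and 36.4 in miR172a, and 67.6 and 84.9 in vector. Its order of groups was that of COR47, and the miR164b and vector arrays came within 6.0 of each other. The change was 0.25 ± 0.12 in miR164b, not called, and -0.74 ± 0.12 in miR172a. The miR164b change was 0.11 without vector replicate 1 and 0.38 without vector replicate 2, and the miR172a change was -0.44 with an offset of 64.

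**Figure D2:**
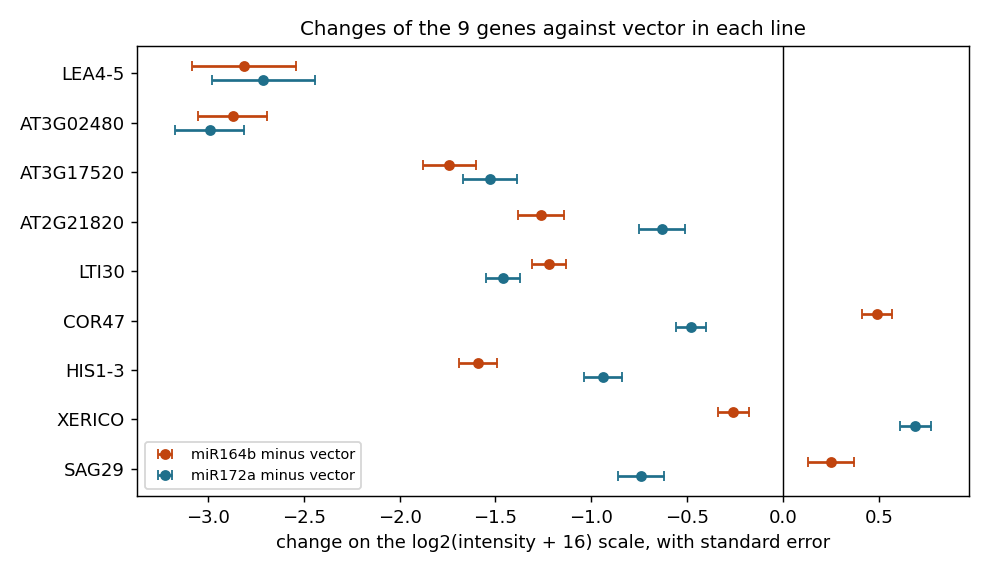
Change of each gene against vector on the log2(intensity + 16) scale, with miR164b above miR172a in each row and bars of 1 standard error. LEA4-5 and AT3G02480 lie between -2.71 and -2.99 in both lines, and COR47, XERICO and SAG29 have points on opposite sides of 0.

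Counted over the 9 genes, 6 were lower and 0 higher past the threshold in miR164b against vector, where 0.84% of all probe sets were lower and 0.95% higher. The 6 were LEA4-5, AT3G02480, AT3G17520, AT2G21820, LTI30 and HIS1-3. The median change was -1.26 over the members and -0.05 over all probe sets. At an unadjusted p under 0.05 the numbers were 7 lower and 1 higher, where 11.4% of all probe sets were lower and 7.04% higher. The count of 6 was 3 with an offset of 1, 2 with vector replicate 1 or vector replicate 2 left out and 0 with miR164b replicate 1 or miR164b replicate 2 left out.

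In miR172a against vector 8 members were lower and 1 higher, where 2.64% of all probe sets were lower and 3.23% higher. The median change was -0.94 over the members and 0 over all probe sets. The count of 9 was 3 without vector replicate 1, vector replicate 2 or miR172a replicate 2, 4 without miR172a replicate 1 or with an offset of 1, and 5 without either miR164b array. For 6 of the 9 genes all 4 line arrays lay below both vector arrays, which held for 12.8% of all probe sets. Both comparisons share the vector arrays, and the members were chosen with them known, so nothing is read from these counts.

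The lines were then compared with each other. For each gene this difference equals the difference between its 2 changes against vector, and the members were chosen with those changes known on the same line arrays. The differences are therefore a description too, given with their error and no p. Of the 9 genes 5 were past the threshold, 2 higher and 3 lower in miR164b, where 3.11% of all probe sets were higher and 4.02% lower in miR164b than in miR172a. Over all probe sets that split was 708 higher and 915 lower, and with median centring 991 and 652. The count of 5 was 3 with an offset of 1, 0 without miR164b replicate 1 or miR164b replicate 2, 1 without miR172a replicate 1 and 2 without miR172a replicate 2. Nothing is read from this count.

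COR47 was 1.97-fold higher in miR164b than in miR172a, at 1631 ± 33.6 against 822 ± 5.4 (SD, n = 2 each; log2 0.98 ± 0.08). The lowest miR164b array stood 781.6 above the highest miR172a array. Over the alternatives the difference ran from 0.94 to 1.05.

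SAG29 had almost the same log2 difference in the same direction, at 93.2 ± 3.2 in miR164b against 39.0 ± 3.7 in miR172a (SD, n = 2 each; log2 0.99 ± 0.12). Over the alternatives the SAG29 difference ran from 0.61, with an offset of 64, to 1.24, so its likeness to that of COR47 depends on the offset. The ratio of mean intensities, with no offset, was 2.39 for SAG29 and 1.98 for COR47.

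XERICO went the other way, at 246 ± 4.0 in miR164b against 489 ± 10.3 in miR172a (SD, n = 2 each; log2 -0.95 ± 0.08). Over the alternatives the difference ran from -0.99 to -0.84.

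HIS1-3 was lower in miR164b than in miR172a, at 108 ± 6.9 against 179 ± 17.2 (SD, n = 2 each; log2 -0.65 ± 0.10). AT2G21820 was also lower, at 11.8 ± 3.9 against 26.9 ± 3.0 (SD, n = 2 each; log2 -0.63 ± 0.12). The AT2G21820 difference was -1.16 with an offset of 1 and -0.26 with 64. It missed the threshold with an offset of 1, median centring, quantile normalization and a trend in eBayes. It also missed it with only the lines fitted, with the replicate letter as a block and with each array left out in turn, 12 of 13 settings together.

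The remaining 4 genes did not pass the threshold between the lines, which does not show that the lines share a level. For LTI30 the difference was 0.24 with a 95% interval from 0.02 to 0.46, and the miR164b arrays were both higher. For AT3G02480 it was 0.12 with an interval from -0.32 to 0.57. For AT3G17520 it was -0.21, from -0.55 to 0.13, and for LEA4-5 -0.11, from -0.76 to 0.55.

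The order of mean levels took 4 forms. COR47 and SAG29 were highest in miR164b and lowest in miR172a, with vector between them, although the step between miR164b and vector passed the threshold for neither in the fit used here (for COR47 it did in the 4 alternatives named above). XERICO was highest in miR172a and lowest in miR164b, and its step between miR164b and vector was not called either. HIS1-3, AT2G21820, LEA4-5 and AT3G17520 were highest in vector and lowest in miR164b. AT3G02480 and LTI30 were highest in vector and lowest in miR172a. For LEA4-5, AT3G17520, AT3G02480 and LTI30 the fit did not separate the lines, so their order between the lines is not settled.

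**Figure D3:**
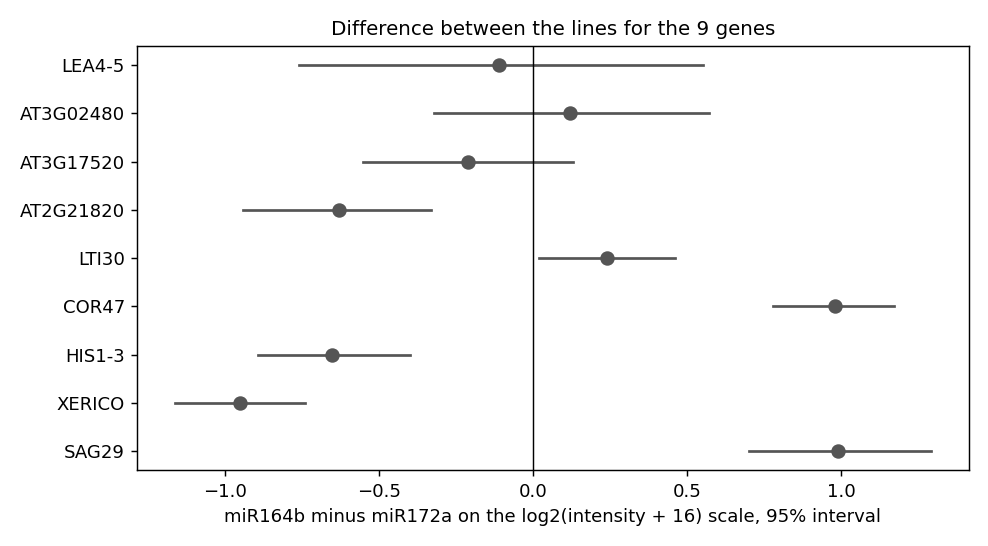
Difference of each gene between the lines, miR164b minus miR172a on the log2(intensity + 16) scale, with 95% intervals. COR47 and SAG29 lie near 1, XERICO near -0.95, and the intervals of LEA4-5, AT3G02480 and AT3G17520 include 0.

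Other genes of the pathway were taken from 9 lists written from gene function: LEA and dehydrin genes, ABA metabolism, ABA receptors with their phosphatases and kinases, transcription factors, other dehydration genes, linker histones, SWEET transporters, senescence genes and gibberellin genes. Earlier results of these arrays were known when the lists were chosen, so the calls and p of list genes are no independent support. Of the 259 genes of the lists 51 had a one-gene probe set, 8 members among them, and 0 of 39 genes for ABA receptors, phosphatases and kinases did. In miR164b against vector limma called 0 of the other 43 genes higher and 1 lower (0.95% and 0.84% of all probe sets). Their median was -0.18 against -0.05 over all probe sets. In miR172a against vector limma called 4 higher and 0 lower (3.23% and 2.64% of all probe sets), with a median of -0.04 against 0. At an unadjusted p under 0.05 these numbers were 2 higher and 13 lower in miR164b (7.04% and 11.4% of all probe sets), and 7 higher and 9 lower in miR172a, where 11% of all probe sets were higher and 10.3% lower. The lines differed for 5 of the 43, 1 higher and 4 lower in miR164b (3.11% and 4.02% of all probe sets).

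The list of LEA and dehydrin genes held 12 measured genes beside the members, and 5 of these read below 16 on all 6 arrays. In miR164b limma called 0 of the 12 (0 higher and 4 lower at an unadjusted p under 0.05), and in miR172a 1 rose and 0 fell (1 and 4). At that unadjusted p 7.04% of all probe sets were higher and 11.4% lower in miR164b, and 11% and 10.3% in miR172a. Among those not called, AtLEA4-1 read 0.9 and 7.7 in miR164b, 13.1 and 19.7 in miR172a, and 26.0 and 21.7 in vector (adjusted p = 0.079 in miR164b). AT3G15670 and LEA18, chosen after their values were seen, were not called either. AT3G15670 read 8.5 and 1.4 in miR164b, 1.7 and 8.3 in miR172a, and 16.8 and 22.6 in vector. LEA18 read 0.5 and 0.2, 0.3 and 0.3, and 15.8 and 4.8 in the same order. Of the 12 changes 10 were below 0 and 2 above in miR164b, and 9 and 3 in miR172a. The gene that rose was AT2G46140, which the gene table also names LEA27. It read 53.9 and 57.0 in miR164b, 197.7 and 189.5 in miR172a, and 64.1 and 67.1 in vector. The rise in miR172a was 1.36 ± 0.08 (limma adjusted p = 0.0026), opposite in direction to LEA4-5 on the same arrays, and the gene was lower in miR164b than in miR172a (log2 -1.55, adjusted p = 0.0013). Both calls held in all 14 alternatives (highest adjusted p = 0.035). COR15B, a cold-induced chloroplast protein, read 390.1 and 397.4 in miR164b, 520.4 and 577.1 in miR172a, and 448.8 and 484.9 in vector. It was lower in miR164b than in miR172a (log2 -0.46, adjusted p = 0.045), a call lost under 10 of 14 settings including every left-out array (adjusted p up to 0.20). Its neighbour COR15A, chosen after its values were seen, was not called, at 495.3 and 429.3 in miR164b, 363.0 and 313.0 in miR172a, and 438.0 and 486.3 in vector (adjusted p = 0.099 between the lines).

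Of the 15 other measured SWEET genes, relatives of SAG29, limma called 0 in miR164b against vector (1 higher and 3 lower at an unadjusted p under 0.05). In miR172a 2 rose and 0 fell: SWEET1, a glucose transporter, to 447.0 and 444.1 in miR172a against 326.5 and 330.8 in vector, and SWEET2, of the vacuole membrane, to 137.0 and 120.0 in miR172a against 88.5 and 80.5 in vector (limma adjusted p = 0.041 and 0.043). SAG29 was lower on those arrays. The SWEET1 call was lost in 10 and the SWEET2 call in 9 of 14 settings including every left-out array (adjusted p up to 0.15 for both).

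GID1B, a gibberellin receptor, was the 1 called gene of 4 in the gibberellin list. It read 50.8 and 47.5 in miR164b, 129.0 and 119.6 in miR172a, and 72.9 and 74.1 in vector. It rose in miR172a by 0.65 ± 0.08 (limma adjusted p = 0.017) and was lower in miR164b than in miR172a (log2 -1.11, or -0.73 with an offset of 64; adjusted p = 0.0036), which is the order of groups seen for XERICO. The first call failed when any of the 6 arrays was dropped (adjusted p up to 0.093) and the second without either miR164b array (highest adjusted p = 0.055).

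WRKY6, a transcription factor induced in senescence, fell in miR164b, to 9.5 and 11.8 against 30.0 and 27.1 in vector (log2 -0.74 ± 0.10, limma adjusted p = 0.032), a call lost under 9 of 13 settings including every left-out array (adjusted p up to 0.23). An offset of 1 gave -1.35 and 64 gave -0.31. The zinc finger repressor STZ, also called ZAT10, was lower in miR164b than in miR172a, at 27.5 and 30.7 against 63.2 and 57.6 (log2 -0.76, or -0.42 with an offset of 64; limma adjusted p = 0.015), and lost that call when any of the 4 line arrays was dropped (adjusted p up to 0.11). RD2 was higher in miR164b than in miR172a, at 1056.0 and 1077.6 against 773.9 and 795.2 (adjusted p = 0.033), and lost it under 9 of 14 settings including every left-out array (adjusted p up to 0.18). In ABA metabolism and transport limma called 0 of 3 genes in any comparison (1 higher in miR164b and 1 higher in miR172a against vector at an unadjusted p under 0.05). The largest changes there were those of AT5G52050, also called DTX50, an efflux transporter, at 43.2 and 40.7 in miR164b, 43.1 and 38.7 in miR172a, and 33.0 and 28.2 in vector.

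**Figure D4:**
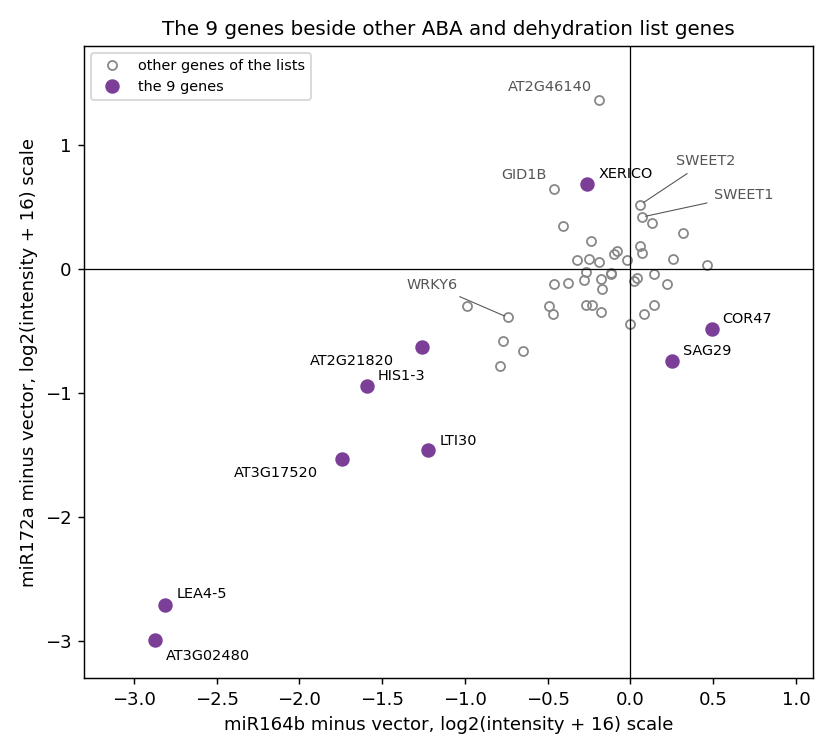
Change against vector on the log2(intensity + 16) scale in miR164b (horizontal axis) and miR172a (vertical axis) for the 9 genes (filled) and 43 other list genes (open), with list genes called in either line named. The 2 axes share the vector arrays; AT2G46140, at -0.19 and 1.36, lies above XERICO, and LEA4-5 and AT3G02480 lie lowest.

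Genes whose profile was most like that of a member were sought among 138 named genes, with the members themselves left out. These 138 had a mean intensity of at least 64 and group means at least 1 apart on the log2 scale. Likeness is Pearson's r over the 6 arrays, which form 3 groups of 2 and so carry mainly 3 group levels. Closest to LTI30 were AT2G41190 (r = 0.98), AT4G01870 and AT5G64110 (r = 0.974 each) and AT2G37870 (r = 0.97). Closest to HIS1-3 were AT3G53980 (r = 0.982), AT5G61820 (r = 0.968), AT2G16660 (r = 0.965) and AT4G22510 (r = 0.953). XERICO was matched by AT3G61490 (r = 0.999), AT5G45650 (r = 0.997), SNZ (r = 0.994) and AT4G30450 (r = 0.992). SNZ, an AP2-type floral repressor and a target of miR172, averaged 95.2 in miR164b, 223 in miR172a and 117 in vector. SAG29 was matched by AT4G17100 and GLC (r = 0.987 each), AT3G20370 (r = 0.981) and AT2G33850 (r = 0.977).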

How the data were processed

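Transcript levels were measured on 6 Affymetrix arrays, 1 per sample, and groups were taken from the sample descriptions. The authors deposited 1 linear intensity per probe set and array, and the software used for it is not given in the sources used here. On every array the mean intensity without the lowest and highest 2% of probe sets was 200.0, and medians ran from 85.3 to 92.2. The 64 control probe sets were left out of the tests, which left 22746. Of these 13513 paired with 1 gene, 503 with several, and 8730 were unnamed here. Names came from the platform annotation, brought up to date from TAIR10.1, a gene table that served for names and gene order only.

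Values were transformed as log2(intensity + 16) with no further scaling and fitted with limma 3.58.1 (lmFit, eBayes) in R 4.3.3, 1 mean per group, with 3 residual and 2.69 prior degrees of freedom. Tests were two-sided, with Benjamini-Hochberg adjustment over all probe sets. A gene with several probe sets was represented by the brightest. With 2 arrays against 2, an exact permutation test of a single gene cannot go below p = 0.333, so none is given. The number of arrays limits the precision. Detection calls, sequences and coordinates were not used here.

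The members and the gene lists were chosen with earlier results of these data known, so no p is given for a member in any comparison, although one had been planned between the lines. Lists are described by counts and medians only. Text names all members and up to 6 called genes of a list or, where 0 were called, up to 2 with the largest changes. It also names the 4 genes outside the members most like each of LTI30, HIS1-3, XERICO and SAG29. Alternatives were offsets of 1 and 64, median centring, quantile normalization, leaving out the dimmest 40% of probe sets, a trend in eBayes, fits of 2 groups only, the replicate letter as a block, a threshold of 0.1 and leaving out each array. Plots were made in matplotlib 3.10.9 under Python 3.11.15.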

Additional observations from a re-analysis of the deposited data

Results flagged for a closer look

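For 5 of the 9 genes the change against vector differed between the lines past the limma threshold for miR164b against miR172a (adjusted p under 0.05 over all probe sets). The members were chosen with those changes known, so this is no independent test. Over all probe sets 3.11% were higher and 4.02% lower in miR164b than in miR172a at that threshold. The difference on the log2 scale was 0.98 for COR47, 0.99 for SAG29, -0.95 for XERICO, -0.65 for HIS1-3 and -0.63 for AT2G21820. AT2G21820 missed the threshold in 12 of 13 settings, an offset of 1, median centring and quantile normalization among them. Of 14 settings HIS1-3 missed it in 5, an offset of 1 among them, SAG29 in 4, XERICO in 3 and COR47 in 2. For SAG29, XERICO and COR47 all of these were settings with 1 array left out. For COR47, SAG29 and XERICO the 2 changes against vector lay on opposite sides of 0, and for HIS1-3 and AT2G21820 both were below 0. Groups of 2 arrays are too small for a check of single arrays that stand apart.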

How the results depend on the processing

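All 27 changes of the 9 genes (3 comparisons each) were recomputed under up to 14 alternatives, which gave 372 values, and 369 kept their direction. The 3 exceptions concern differences between the lines that were not called: LEA4-5 was 0.09 without miR164b replicate 2 and 0.27 without miR172a replicate 1 (range -0.48 to 0.27 without 1 array), and AT3G02480 was -0.12 without miR172a replicate 2 (range -0.12 to 0.37). Of 20 called results 2 held everywhere, those of AT3G02480 and LTI30 in miR172a against vector. Median centring and quantile normalization shifted the median of all probe sets by at most 0.075. The 2 arrays a group limit every call, and leaving one out leaves a lone array that is assumed to vary like the others.

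Counts are given in 1 order: miR164b against vector, then miR172a against vector, then the comparison of the lines. Called probe sets numbered 407, 1336 and 1623. They were 103, 406 and 683 with an offset of 1, 916, 2241 and 2707 with an offset of 64, 1148, 2419 and 2979 without the dimmest 40%, 1068, 2263 and 2724 with a trend, 144, 359 and 1018 with only the 2 groups compared, and 964, 2412 and 2948 at a threshold of 0.1. Leaving out 1 array gave 9 to 144, 111 to 359 and 102 to 1018. Called members, 6, 9 and 5, were 3, 4 and 3 with an offset of 1, and miR172a against vector had 5 with only those 2 groups. Leaving out 1 array gave 0 to 6, 3 to 5 and 0 to 4. Of the 43 other list genes 1, 4 and 5 were called. They were 0, 2 and 3 with an offset of 1, 4, 7 and 10 with an offset of 64, 4, 8 and 10 without the dimmest 40%, 4, 9 and 11 with a trend, 0, 1 and 3 with only the 2 groups, 5, 8 and 13 at a threshold of 0.1, and 0 in every case, 1 to 2 and 1 to 3 without 1 array. The causes were not tested, beyond fewer probe sets tested or fewer arrays where the setting itself brings that.

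The labels do not say whether arrays of one letter in different groups share more than that letter. Their deviations from the group means correlated at 0.079 between miR164b and miR172a and -0.011 between miR164b and vector. Between miR172a and vector the value was 0.105. A single correlation for each pair of groups cannot decide whether the letters pair arrays. With the letter as a replicate block 186, 795 and 1104 probe sets, 6, 6 and 4 members and 0, 2 and 3 list genes were called.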

Other observations

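A further 10 genes with drought or cold in their names or known roles were listed after the annotation had been seen and with some of their results already known. PUB19, a ubiquitin ligase gene that drought induces, fell in both lines. It read 40.8 and 31.8 in miR164b, 38.6 and 31.6 in miR172a, and 95 and 81.5 in vector (limma adjusted p = 0.034 in miR164b and 0.017 in miR172a, where the log2 change was -1.03). The 2 comparisons share the vector arrays, and each call was lost with an offset of 1, without either vector array and without either array of its line (highest adjusted p = 0.22 and 0.091). The miR164b call was also lost without either miR172a array and with only miR164b and vector fitted (adjusted p = 0.076 each). With an offset of 64 the changes were -0.6 in miR164b and -0.62 in miR172a. Its relatives PUB22 and PUB23 were not called.

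COR27, a cold-regulated gene, fell in miR172a, to 55.7 and 63.5 against 259.4 and 256.3 in vector, while miR164b read 250.4 and 243.1 (limma adjusted p = 0.002 in miR172a, a call kept in all 14 alternatives). SRC2, a gene named for its cold regulation in soybean, rose in miR172a, to 497.4 and 526.3 against 340.8 and 376.2 in vector (limma adjusted p = 0.038), a call lost under 10 of 14 settings including every left-out array (adjusted p up to 0.14). DI19 and DI21, named as drought-induced, were not called in any comparison. DI21 read 984.1 and 1018.2 in miR164b, 878.0 and 934.8 in miR172a, and 1037.8 and 1147.1 in vector.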
